A study of Mus musculus with 54 samples.

Results

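Ovaries of F2 mice whose father came from the dose 2 group and whose mother came from the control group were compared with ovaries of F2 mice with control parents on both sides. The members were picked out by their labels, as 3 libraries labelled MaleDose2 x FemaleCTL and 3 labelled MaleCTL x FemaleCTL, and they make up 6 of the 54 libraries of the series. They are called the paternal dose 2 cross and the control cross here, and the libraries of each carry the letters A, B and C.

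The series sequenced RNA of mouse testis and ovary after a cocktail of ibuprofen, its metabolite 2-hydroxyibuprofen, diclofenac and ethinyl-estradiol was given in drinking water. Ibuprofen and diclofenac are drugs that block the cyclooxygenase enzymes of prostaglandin synthesis, and ethinyl-estradiol is a synthetic estrogen of contraceptive pills. Exposure ran from 8.5 days post-coitum in pregnant females and then in their progeny, with 6 to 7 F0 females per exposure group. In dose 2 the drinking water contained ibuprofen at 113 ng/L, its metabolite at 225 ng/L, diclofenac at 112 ng/L and the estrogen at 45 ng/L, and control water carried the 0.001% ethanol vehicle.

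Each F2 ovary label gives the treatment of the animal as none, and by label these 2 crosses differ in the group of the father only. The labels place female sacrifice at 30 days post-partum and state no strain. They also do not say whether libraries A, B and C came from separate animals or litters. Every p-value rests on the spread within crosses over all 18 F2 ovary libraries, of 6 crosses, and this spread may be technical. A difference between crosses cannot be told apart from one between litters.

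The ovary at this age holds growing follicles, in which granulosa cells surround the oocyte and theca cells lie outside. Theca cells carry the receptor of luteinizing hormone and turn cholesterol into androgens, which granulosa cells convert into estrogens with aromatase. Cholesterol for this comes from uptake of lipoproteins and from a chain of enzymes whose genes share regulation by the sterol-sensing transcription factor SREBP2.

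Total counts, with M for mega, were 50.5, 40.3 and 44.4 M in paternal dose 2 A, B and C, and 54.8, 53.0 and 84.7 M in control cross A, B and C. Levels are given as CPM, the counts of a gene per 1 M counts of its library after scaling between libraries. Ovarian identity was checked on the granulosa gene Foxl2, at 229.8, 421 and 277 CPM in the paternal dose 2 libraries and 274, 378 and 267 CPM in the control cross, and on the oocyte gene Zp3, at 122, 125 and 108 against 73.6, 154 and 105 CPM. Both were present in all 6 libraries, and neither set of 3 stood apart from the other. None of the 6 was far from the rest on the first principal component of the 18 F2 ovary libraries, where 1 library of another cross, maternal dose 1 C, stood apart. On the second, control cross A lay at -23.5 and control cross B at 16.0, and the paternal dose 2 libraries from -6.64 to 1.29. Control cross A and B also had the lowest Spearman correlation of any pair of the 6, at 0.982.

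No gene passed the test between the paternal dose 2 cross and the control cross. The test was edgeR's quasi-likelihood F test on all 18 F2 ovary libraries, with Benjamini-Hochberg adjustment and a threshold of 0.05. Of 17400 genes tested, 0 passed (0%), and the lowest adjusted p was 0.237. At an unadjusted p under 0.05 stood 664 genes, of which 344 had higher levels (1.98% of genes tested) and 320 lower levels (1.84%) in the paternal dose 2 cross. If no gene differed, 870 would be expected at that p. DESeq2 called 6 of 22424 genes at the same threshold (0.0268%). All 3 paternal dose 2 libraries lay above all 3 control cross libraries for 998 genes (5.74%) and below them for 886 (5.09%), together 10.8%. Random order of 3 against 3 libraries separates the groups of a gene with a probability of 0.1. The median log2 fold change over all genes was -0.002, and the median of its absolute size was 0.12. No difference in this text from the control cross passed edgeR's threshold, and fold changes are given as paternal dose 2 over control.

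Genes of cholesterol synthesis and uptake had lower levels in the paternal dose 2 cross throughout the list. All 21 list genes had a negative log2 fold change, with a median of -0.40. The paternal dose 2 libraries lay below every control cross library for 10 of the 21, against 5.09% of all genes, and 13 had an unadjusted p under 0.05, against 1.84%. None of the 21 passed after adjustment. This list, like the other gene lists, was chosen with earlier results of these data known. The summed level of the list was 1537 to 1869.7 CPM in the paternal dose 2 cross and 2035 to 2256 CPM in the control cross, so the sums did not overlap. The direction held for all 21 when any 1 of the 6 libraries was left out, with a median from -0.47 to -0.31.

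**Figure D1:**
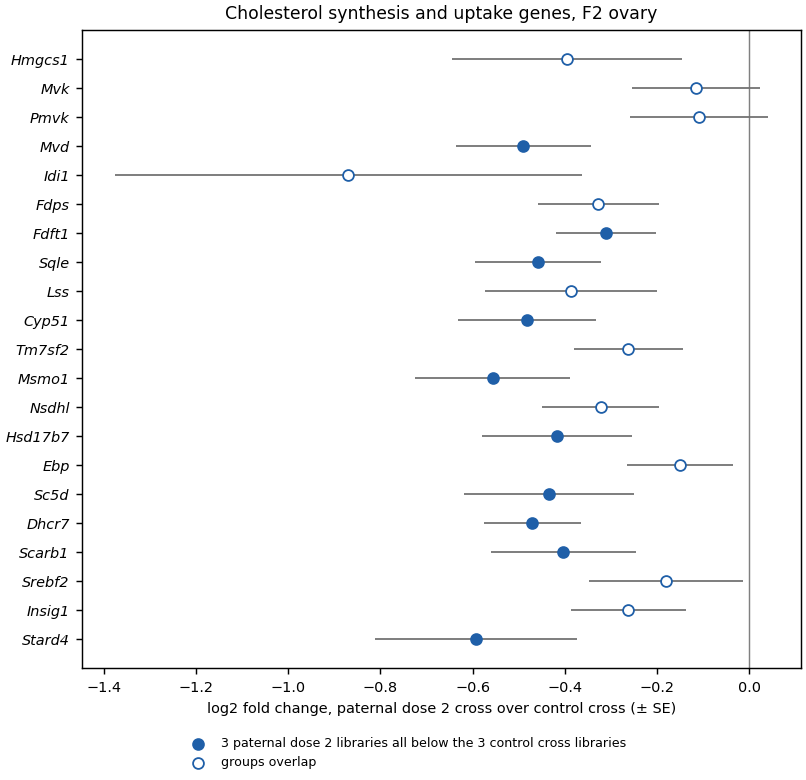
Log2 fold change of the 21 genes of cholesterol synthesis and uptake, paternal dose 2 cross over control cross (x axis), one gene per row in pathway order with uptake and control genes at the bottom. Bars are the SE of edgeR's fit on 18 libraries, and filled points mark the 10 genes whose 3 paternal dose 2 libraries all lay below the 3 control cross libraries. Every point lies left of 0.

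In the mevalonate steps at the head of the pathway, Hmgcs1, which makes HMG-CoA, had 250.4, 146 and 157 CPM in paternal dose 2 A, B and C and 197, 266 and 266 CPM in control cross A, B and C. Its groups overlapped, with paternal dose 2 A high. Mvd, which makes isopentenyl diphosphate, had 26.8, 19.3 and 20.5 CPM against 27.5, 28.9 and 37.2 CPM and a log2 fold change of -0.49 (SE 0.145). Mvk and Pmvk, the kinases before it, were within their spread, at log2 -0.12 (SE 0.139) and -0.11 (SE 0.150).

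In the squalene and lanosterol steps, Sqle, a further control point that oxidises squalene, had 55.9, 47.3 and 47.9 CPM against 72.7, 60.8 and 74.2 CPM, with no overlap (log2 -0.46, SE 0.136). Fdft1, the squalene synthase, had 116, 105 and 94.3 CPM against 119, 141 and 131 CPM, with paternal dose 2 A just under control cross A. The lanosterol demethylase Cyp51 had 69.2, 64.4 and 56.4 CPM against 88.9, 77.9 and 98.7 CPM. All 3 of these genes had their paternal dose 2 libraries at the bottom of the 6. Msmo1, the next oxidase, had 137, 84.8 and 104 CPM against 153, 152 and 174 CPM (log2 -0.56, SE 0.168).

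In the last steps of the pathway some genes had separate groups and others did not. Dhcr7, which makes cholesterol from 7-dehydrocholesterol, had 75.0, 66.2 and 71.7 CPM against 104, 85.9 and 105 CPM. That is a log2 fold change of -0.47 (SE 0.106, edgeR adjusted p = 0.622), with narrow spread inside the paternal dose 2 cross. Hsd17b7 and Sc5d, which act between lanosterol and Dhcr7, were also lower without overlap, at log2 -0.42 (SE 0.163) and -0.43 (SE 0.185). Ebp, Nsdhl and Tm7sf2, also enzymes of these steps, overlapped, at log2 -0.15 (SE 0.114), -0.32 (SE 0.127) and -0.26 (SE 0.118).

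Uptake and transport genes had the same direction. Scarb1, the receptor for high density lipoprotein that supplies steroid-making cells, had 440.4, 484 and 357 CPM against 634, 534 and 527 CPM (log2 -0.40, SE 0.157). Stard4, a carrier of cholesterol between membranes, had 31.6, 22.0 and 29.7 CPM against 44.7, 33.2 and 47.8 CPM (log2 -0.59, SE 0.219). In both genes the groups were separate. The regulators were closer together, with Srebf2, which encodes SREBP2, at log2 -0.18 (SE 0.167) and Insig1, which holds SREBP2 back, at -0.26 (SE 0.125).

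The 250 bases before the annotated start of the cholesterol list genes were searched in RefSeq sequences of build GRCm38.p6. That is not the build of the counts. A window was matched for 16 of the 21 genes. The motif TCACNCCAC of the sterol regulatory element, which SREBP2 binds, was searched on both strands. It was found in 1 of the 16 genes, Hmgcs1, starting 137 bases before the start, and in 1.34% of 13518 tested genes with a window. The CCAAT box, bound by NF-Y, a partner of SREBP2, was found on 1 strand or the other in 16 of the 16 genes and in 39.4% of the 13518. Dhcr7 has 3 windows and Pmvk 2, and a gene counted if any window held the motif. In Hmgcs1 the 2 motifs share no letters. A match is a run of letters and not a measured binding site. The search used no levels, so its results describe the list and would be the same whatever direction its genes took here.

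Promoters of 4 genes are shown as examples, Hmgcs1 because it held both motifs and Msmo1, Hsd17b7 and Cyp51 because their groups did not overlap. Each runs 5′ to 3′ on the strand of the gene and ends at the base before the start, and capitals mark the motifs on either strand. Hmgcs1 is at chr13:119690101-119690350 (plus strand), Msmo1 at chr8:64733579-64733828 (minus), Hsd17b7 at chr1:169969206-169969455 (minus) and Cyp51 at chr5:4104698-4104947 (minus).
Hmgcs1: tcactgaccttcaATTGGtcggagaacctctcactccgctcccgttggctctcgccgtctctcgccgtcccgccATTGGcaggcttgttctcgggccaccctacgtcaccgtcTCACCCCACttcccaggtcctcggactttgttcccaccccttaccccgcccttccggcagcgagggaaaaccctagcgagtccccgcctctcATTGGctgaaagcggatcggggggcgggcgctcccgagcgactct
Msmo1: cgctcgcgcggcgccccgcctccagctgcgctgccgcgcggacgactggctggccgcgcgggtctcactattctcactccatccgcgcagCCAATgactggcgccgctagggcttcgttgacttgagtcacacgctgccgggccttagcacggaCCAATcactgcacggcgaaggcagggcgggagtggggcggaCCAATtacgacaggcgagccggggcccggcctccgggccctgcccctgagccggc
Hsd17b7: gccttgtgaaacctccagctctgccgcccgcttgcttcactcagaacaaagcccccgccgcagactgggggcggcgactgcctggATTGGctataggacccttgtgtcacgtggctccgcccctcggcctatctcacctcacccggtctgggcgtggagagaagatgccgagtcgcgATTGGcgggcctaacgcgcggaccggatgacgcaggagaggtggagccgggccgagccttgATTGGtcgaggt
Cyp51: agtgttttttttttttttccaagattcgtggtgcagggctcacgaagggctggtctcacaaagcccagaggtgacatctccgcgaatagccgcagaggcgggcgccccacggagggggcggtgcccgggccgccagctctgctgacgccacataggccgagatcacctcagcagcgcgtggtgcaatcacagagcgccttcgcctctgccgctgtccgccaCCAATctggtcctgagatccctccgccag
The capitals of Hmgcs1 hold 1 sterol element and 3 CCAAT boxes, those of Msmo1 and Hsd17b7 hold 3 CCAAT boxes each, and Cyp51 holds 1. The log2 fold change was -0.40 (SE 0.250) for Hmgcs1, whose groups overlapped, and -0.48 (SE 0.150) for Cyp51, whose groups did not.

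Cholesterol feeds steroid synthesis, whose genes were less uniform. Of 21 list genes, 13 had lower and 8 higher levels, with a median log2 fold change of -0.12, and 0 passed. Hsd17b7 counts in both lists. Cyp11a1 encodes the enzyme that cuts the cholesterol side chain, the first step to all steroids. Its level was 1505, 1398 and 960.0 CPM in the paternal dose 2 libraries and 1600.5, 2356 and 1986 CPM in the control cross, without overlap (log2 -0.62, SE 0.225). Hsd3b1, the next enzyme, had 3689, 3354 and 2863 CPM against 3749, 4039 and 3811 CPM, separated by a narrow gap between paternal dose 2 A and control cross A.

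Star, the carrier of cholesterol into mitochondria, went with 1 library. It had 67.0, 296 and 35.3 CPM against 136, 52.9 and 71.1 CPM, and the log2 fold change of 0.61 (SE 0.581) became -0.76 without paternal dose 2 B. Cyp17a1, the androgen-making enzyme of theca cells, had 676, 1411 and 345 CPM against 1367, 1054 and 1219.7 CPM. Paternal dose 2 B was again the high library, and the log2 fold change was -0.58 (SE 0.433) with it and -1.25 without it. Aromatase, Cyp19a1, had 25.9, 41.5 and 30.6 CPM against 41.4, 180.2 and 47.0 CPM. Control cross B alone was high, and the log2 fold change of -1.46 (SE 0.538) was -0.44 without that library. Hsd17b1, which makes estradiol in granulosa cells, had 359, 362 and 373 CPM against 329, 433 and 368 CPM, a difference within the spread of either group.

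Among the hormone receptors, Lhcgr, the receptor of luteinizing hormone, had the largest difference. It had 116, 137 and 82.3 CPM in the paternal dose 2 libraries and 292, 436 and 169 CPM in the control cross. All 3 paternal dose 2 libraries were below the lowest control library, and the control cross itself spanned a wide range (log2 -1.42, SE 0.466, edgeR adjusted p = 0.9999). Prlr, the prolactin receptor, had 91.7, 61.2 and 80.7 CPM against 163, 112 and 99.2 CPM. Ghr, the growth hormone receptor, was on the other side, at 61.2, 59.3 and 57.4 CPM against 49.2, 40.5 and 38.6 CPM. Fshr, the receptor of follicle stimulating hormone on granulosa cells, overlapped between groups at 51.4, 39.8 and 57.6 CPM against 43.8, 66.3 and 66.6 CPM. Over the 9 receptors tested, 7 had lower levels, 2 higher, and the median log2 fold change was -0.09. Without control cross A, 4 were lower and 5 higher, and the median was 0.11.

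**Figure D2:**
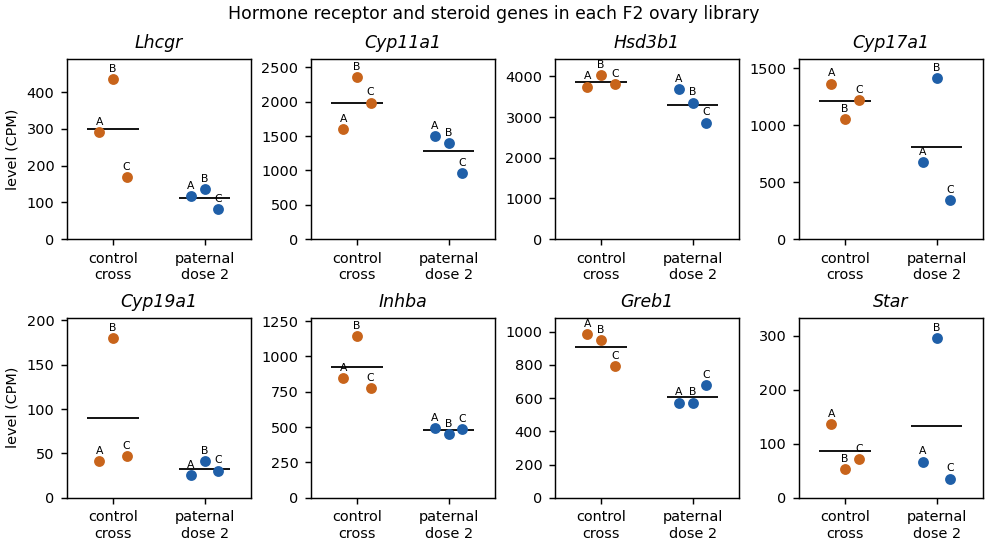
Level in CPM (y axis, from 0) of 8 genes of hormone signalling and steroid synthesis in control cross (orange) and paternal dose 2 (blue) libraries A, B and C, with the group mean as a line. Lhcgr, Cyp11a1, Hsd3b1, Inhba and Greb1 show separate groups, while Cyp17a1, Cyp19a1 and Star each have 1 library far from the other 2 of its group.

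Estrogen receptors did not differ beyond the spread. Esr1 had 43.2, 54.8 and 46.6 CPM against 52.9, 39.4 and 54.1 CPM, and Esr2, the receptor of granulosa cells, had 216, 219 and 295 CPM against 264, 159.7 and 215 CPM. Pgr, an estrogen target, had 2.55, 2.46 and 2.93 CPM against 3.97, 1.45 and 2.12 CPM. All 3 overlapped, with log2 fold changes of -0.02 (SE 0.142), 0.19 (SE 0.173) and 0.08 (SE 0.353). Greb1, a cofactor of the estrogen receptor that estrogen induces in many cells, was the 1 gene of 14 on the estrogen list whose groups were separate, a share near the 10.8% of all genes. It had 573, 573 and 677 CPM against 984, 951 and 793 CPM (log2 -0.58, SE 0.167). Of the 14, 9 had lower and 5 higher levels, with a median of -0.02.

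Signals of growing follicles lay near 0 as a list. Of 32 activin, inhibin, AMH and BMP genes, 22 had lower and 10 higher levels, and the median was -0.08. The paternal dose 2 libraries lay below every control cross library for 1 of the 32, Inhba, a share under the 5.09% of all genes. Inhba, the subunit of activin A and inhibin A made by granulosa cells, had 491, 451 and 487 CPM against 849, 1146 and 777 CPM. The paternal dose 2 libraries were close to each other, and the control cross spread more widely (log2 -0.96, SE 0.432). Nppc, of the granulosa marker list, is the peptide that holds the oocyte in meiotic arrest. It had 26.8, 24.8 and 28.2 CPM against 42.3, 83.7 and 37.1 CPM, also without overlap. Inha, the shared inhibin subunit, had 4252, 4441 and 5221 CPM against 4961, 5955 and 5032 CPM and overlapped. Amh, the hormone of small growing follicles, had 474, 511 and 426 CPM against 329, 538 and 481 CPM, and its groups overlapped too. Bmpr2, a receptor of the BMP family, had 300.4, 275 and 444 CPM against 494, 336 and 358 CPM and was within the spread.

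Genes of ovulation and the early corpus luteum were also mixed, with 10 of 20 lower and 10 higher and a median of -0.01. Adamts1, a protease of the follicle matrix, had 46.2, 34.6 and 40.2 CPM against 54.9, 70.3 and 57.2 CPM, with no overlap (log2 -0.59, SE 0.133, edgeR adjusted p = 0.622). Sfrp4, a secreted WNT modulator, had 8.36, 5.80 and 7.62 CPM against 21.0, 25.5 and 11.7 CPM. Both were lower in all 3 paternal dose 2 libraries. With Lhcgr they were the 3 of the 20 genes that lay below every control cross library, against 5.09% of all genes. Fosl2, an AP-1 transcription factor that is not on this list, had 314, 207 and 322 CPM against 427, 493 and 481 CPM and was likewise separate.

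The prostaglandin pathway, where 2 drugs of the cocktail act, had a median of -0.09 over 20 genes, with 13 lower and 7 higher. Without paternal dose 2 B, 9 were lower and 11 higher, and the median was 0.02. The cyclooxygenase gene Ptgs1 had 2.59, 3.01 and 4.13 CPM against 3.74, 4.48 and 4.35 CPM, an overlap. Ptgs2, the inducible form, was under 0.3 CPM in every library, with 8, 0 and 3 counts in paternal dose 2 A, B and C and 9, 15 and 10 counts in the control cross. The groups overlapped in CPM and the log2 fold change was -1.21 (SE 1.03). Slco2a1, the prostaglandin uptake carrier, was lower without overlap at 42.6, 32.7 and 43.0 CPM against 78.7, 45.4 and 57.5 CPM. Of 19 genes of drug and estrogen metabolism, 13 were lower and 6 higher. Ahr, the receptor of many aromatic compounds, had 17.7, 14.1 and 22.1 CPM against 28.9, 22.9 and 25.0 CPM. Cyp2e1, an oxidase of small molecules, had 1.25, 3.96 and 1.84 CPM against 0.653, 0.651 and 0.823 CPM, the paternal dose 2 cross being higher. Gstp1 was also higher, at log2 0.56 (SE 0.253), and its reads can be shared with near-identical gene copies.

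Oocyte genes tended the other way by small amounts. Of 35 oocyte markers, 33 had higher levels in the paternal dose 2 cross, with a median of 0.18, yet the summed levels overlapped at 2109 to 2419 CPM against 1637 to 2573 CPM. Control cross A had the lowest sum, and without it 20 of 35 were higher and the median was 0.01. Without control cross B 33 of 35 were higher and the median was 0.48. Gdf9, an oocyte growth factor, had 194, 201 and 165 CPM against 118, 224 and 146 CPM. Its partner Bmp15 had 53.2, 52.4 and 46.5 CPM against 34.6, 50.8 and 36.9 CPM. Both overlapped, and of the 35 genes 1, Tle6 of the oocyte's subcortical complex, had separate groups, a share under the 10.8% of all genes, at 122, 141 and 110.3 CPM against 71.1, 109 and 96.4 CPM. In bulk ovary, a different number of cells of a type and a different amount of RNA per cell cannot be told apart. Ribosomal protein genes, 28 of 30 higher with a median of 0.07, also moved with single control libraries. Without control cross A 2 of 30 were higher and the median was -0.08, and without control cross B 30 of 30 were higher and the median was 0.28.

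Cell cycle genes were slightly higher, 21 of 30 with a median of 0.13. For 11 of the 30 the paternal dose 2 libraries all lay above the control cross, against 5.74% of all genes. Cdc20, an activator of the anaphase ligase, had 94.0, 92.9 and 88.9 CPM against 74.7, 74.8 and 78.1 CPM, and Aurka, a spindle kinase, had 52.7, 47.7 and 43.0 CPM against 36.1, 40.6 and 38.6 CPM. Mki67, a marker of cycling cells, had 207, 191 and 195 CPM against 184, 97.3 and 148 CPM. These gaps were narrow, and the highest log2 fold change of the list was 0.46. Without control cross A the median was 0.06, and without paternal dose 2 A it was 0.08. Dnmt1, the maintenance DNA methyltransferase that cycling cells express, was also above the control cross, at 263, 273 and 274 CPM against 231, 199 and 244 CPM. The list of 20 DNA methylation and chromatin genes had 11 higher and 9 lower, with a median of 0.01.

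**Figure D3:**
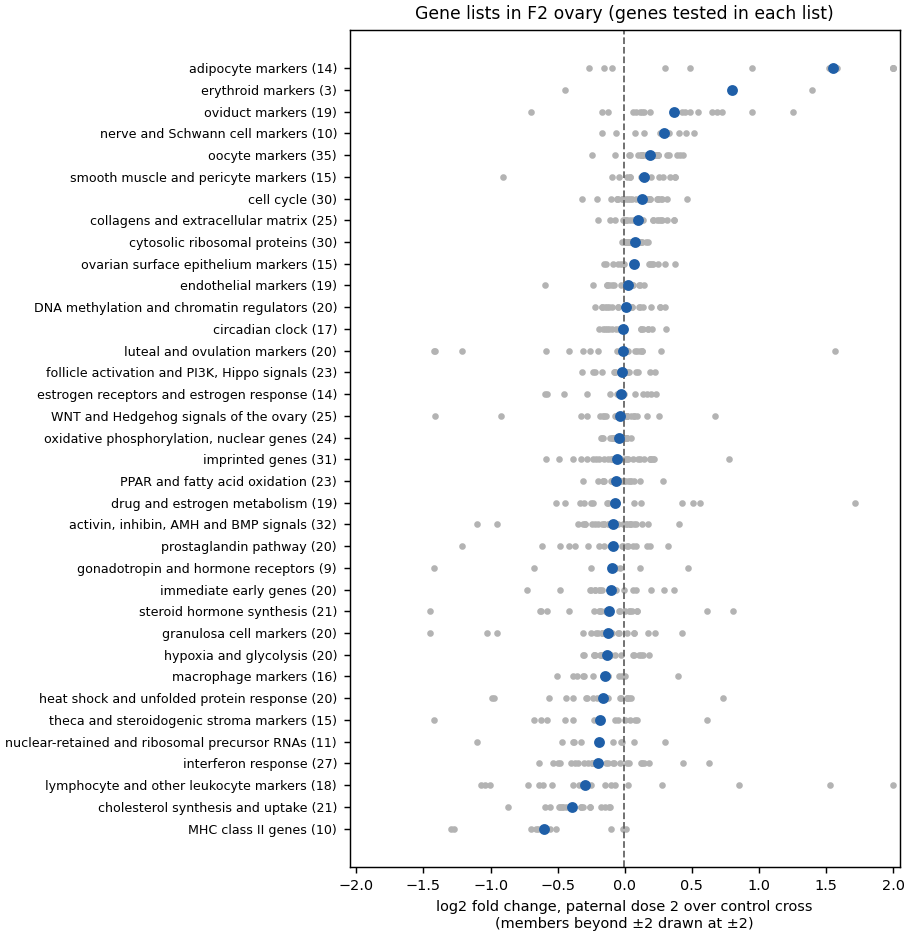
Log2 fold change of the members (grey) and the median (blue) of 36 gene lists, paternal dose 2 cross over control cross (x axis), with the number of genes tested in parentheses and the median of all 17400 genes as a dashed line. MHC class II genes, with 10 tested, have the lowest median, -0.60, and the cholesterol list has the next lowest, -0.40. Adipocyte markers have the highest, 1.55.

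Markers of other cell types that an ovary sample can hold included adipocyte markers with higher levels and MHC class II genes with lower levels. Of 14 adipocyte markers, 11 had higher levels, with a median log2 fold change of 1.55, and for 7 the paternal dose 2 libraries all lay above the control cross, against 5.74% of all genes. Adipoq, the fat hormone adiponectin, had 0.979, 5.95 and 5.69 CPM in the paternal dose 2 libraries and 0.163, 0.230 and 0.341 CPM in the control cross (log2 4.05, SE 1.15, edgeR adjusted p = 0.961). Cfd, the adipocyte protease adipsin, had 3.78, 12.0 and 7.84 CPM against 0.762, 1.45 and 0.659 CPM. Fabp4, a fatty acid carrier, had 6.44, 16.2 and 19.2 CPM against 3.56, 5.59 and 5.39 CPM. Paternal dose 2 A was the lowest of its group for all 3 genes. Pparg, Plin1 and Lpl, markers that other ovarian cells also express, were not higher, and the summed level of the list overlapped at 309.8 to 369 CPM against 289 to 360.3 CPM. The part of fat tissue in the lower cholesterol genes was not tested.

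Oviduct markers were higher for 16 of 19 genes, with a median of 0.36, and their sums overlapped at 76.4 to 95.6 CPM against 64.8 to 83.5 CPM. Rsph1, a gene of motile cilia, had 5.76, 2.86 and 2.35 CPM against 1.58, 2.24 and 1.89 CPM. MHC class II genes were lower for 9 of 10, with a median of -0.60, and their sums were 219.7 to 252 CPM against 266 to 460.3 CPM, without overlap. Cd74, the chaperone of these molecules, had 108, 107 and 123 CPM against 206, 130.4 and 213 CPM, without overlap. Macrophage markers were lower for 14 of 16, with a median of -0.15, but for 0 of the 16 were the groups separate, and the sums overlapped at 368 to 427 CPM against 382 to 491 CPM. Of 18 lymphocyte and other leukocyte markers, 13 were lower and 5 higher, with a median of -0.30, and the sums overlapped at 128 to 164 CPM against 112 to 197 CPM. Of 8 erythroid markers, 4 globin genes were at 0 counts in all 6 libraries. Theca and steroidogenic stroma markers, which include Lhcgr, Cyp11a1 and Hsd3b1, summed to 5580.0 to 8031 CPM against 8428 to 9482 CPM, with 11 of 15 lower and a median of -0.19. Without control cross C, 6 were lower and 9 higher, and the median was 0.09. Their part in the lower cholesterol and Lhcgr levels was not tested.

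Genes of heat shock and the unfolded protein response were lower for 15 of 20, with a median of -0.16. Hspa1a, the inducible HSP70, had 27.4, 32.1 and 15.1 CPM against 34.9, 60.9 and 52.4 CPM, and Dnajb1, its co-chaperone, had 102, 92.3 and 76.9 CPM against 110.1, 142 and 115 CPM. Dnajb9, a chaperone of the endoplasmic reticulum, had 39.1, 28.8 and 41.1 CPM against 48.5, 57.5 and 54.7 CPM. All 3 were lower without overlap, and they were the 3 of the 20 genes with separate groups, against 5.09% of all genes lower in this way. The summed level of the list overlapped, at 11194 to 13329 CPM against 11576 to 14916 CPM. With 1 library left out, the median ranged from -0.26 to -0.07. Of 11 nuclear and ribosomal precursor RNAs, which can mark RNA quality, 9 were lower and 2 higher, with a median of -0.19. For 3 of the 11 the paternal dose 2 libraries lay below every control cross library, against 5.09% of all genes. The sums overlapped at 2188 to 2421 CPM against 2272 to 3074 CPM. Without control cross A, 6 were lower and 5 higher, and the median was -0.09. Mir6236, annotated within ribosomal RNA sequence, had 17.4, 17.7 and 16.4 CPM against 42.8, 30.1 and 37.6 CPM. Malat1 overlapped at 326, 249 and 357 CPM against 521, 347 and 343 CPM. The part of RNA quality in the results was not tested.

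Across all genes, 12 higher and 11 lower genes of lowest p were examined, all with separate groups and a mean level of 1 CPM or more in whichever group was higher. Tdh, Pcp4 and Ctxn3 met that level through the control cross alone, and B3gnt3 and Snora7a through the paternal dose 2 cross alone. Dhcr7 and Adamts1 were among the lower genes. Tdh, a threonine dehydrogenase, had 0.333, 0.199 and 0.333 CPM against 1.52, 0.899 and 0.894 CPM (log2 -1.92, SE 0.372, edgeR adjusted p = 0.555, DESeq2 adjusted p = 0.0194). Nup62cl, a relative of a nuclear pore protein, had 2.27, 2.16 and 2.07 CPM against 5.71, 6.56 and 4.80 CPM (log2 -1.39, SE 0.270, DESeq2 adjusted p = 0.00317). Pappa, a protease that frees insulin-like growth factors from their binding proteins, had 1.68, 2.06 and 2.38 CPM against 9.58, 12.5 and 2.92 CPM, with control cross C close to the paternal dose 2 libraries (DESeq2 adjusted p = 0.0173). These 3 genes passed in DESeq2 and not in edgeR.

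Akr1e1, an aldo-keto reductase, had 14.4, 12.7 and 16.9 CPM against 26.2, 28.5 and 30.1 CPM, a clear gap between tight groups (log2 -0.95, SE 0.212, edgeR adjusted p = 0.622). Mid1ip1, an activator of fatty acid synthesis, had 310.2, 273 and 316 CPM against 389, 467 and 407 CPM. Epdr1 had 29.5, 30.6 and 30.8 CPM against 45.5, 53.2 and 39.1 CPM and Prrt4 had 24.8, 20.2 and 22.8 CPM against 40.2, 46.5 and 32.0 CPM, both with little spread in the paternal dose 2 cross. Pcp4 had 0.176, 0.0498 and 0.0444 CPM and Ctxn3 0.548, 0.821 and 0.800 CPM in the paternal dose 2 libraries. Their log2 fold changes were -3.47 (SE 0.779) and -1.47 (SE 0.345), and that of Pcp4 was -4.42 without paternal dose 2 A. The mean level of Pcp4 was 1.06 CPM in the control cross and 0.0782 to 0.243 CPM in the crosses other than these 2.

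On the higher side, Ankle1, a DNA endonuclease, had 26.0, 24.9 and 20.1 CPM against 15.1, 12.7 and 14.97 CPM (log2 0.73, SE 0.156, edgeR adjusted p = 0.622, DESeq2 adjusted p = 0.0299). Nes, the intermediate filament nestin, had 42.3, 57.6 and 45.0 CPM against 23.6, 25.6 and 36.8 CPM. Izumo4, of a family known for gamete fusion, had 16.0, 13.4 and 19.5 CPM against 4.77, 6.41 and 6.57 CPM. All 3 had higher levels in every paternal dose 2 library. Bfsp1, a lens filament protein, had 30.0, 24.8 and 13.9 CPM against 2.34, 8.69 and 1.99 CPM, and control cross B was the highest of the controls, so that the log2 fold change was 2.41 (SE 0.655) with it and 3.41 without it. The other higher genes were Ripor3, Snora7a, Fam171a2, B3gnt3, Mical1, C1qtnf2, Clcn6 and C130074G19Rik, with log2 fold changes from 0.42 to 1.94. C130074G19Rik had the highest level of the 12, at 275, 279 and 309 CPM against 199, 217 and 229 CPM.

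**Figure D4:**
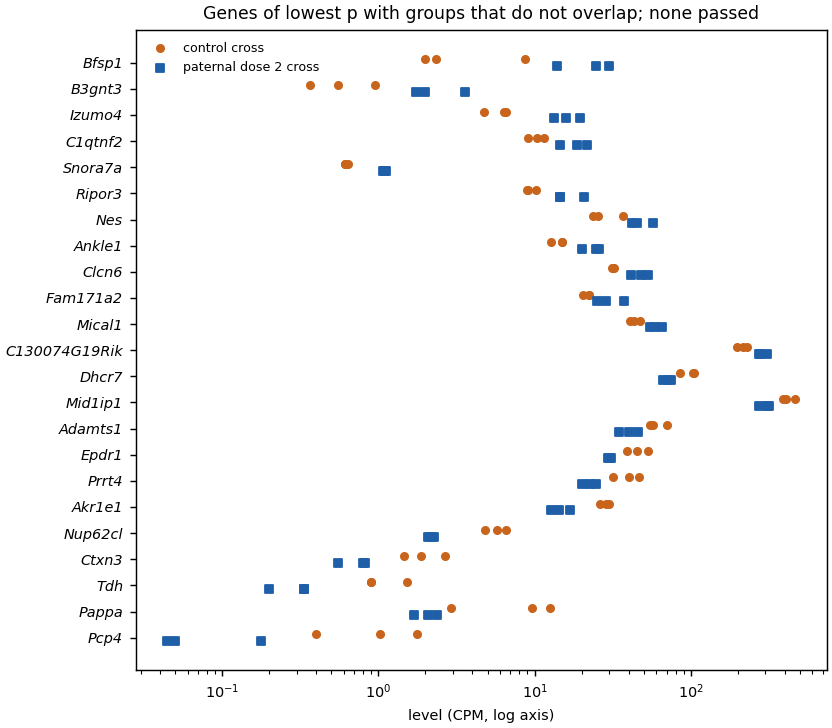
Level in CPM (x axis, log scale) of 23 genes of lowest p with separate groups, 12 higher and 11 lower, in 3 paternal dose 2 (blue squares) and 3 control cross (orange circles) libraries. The groups do not touch for any gene, which the rule required, and no gene passed edgeR's threshold.

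The other 2 genes that passed in DESeq2, besides the 4 above, were Gm30075 and Lrrc66, each under 1.5 CPM. Gm30075, an uncharacterised transcript, had 0.999, 0.920 and 0.489 CPM against 0.0363, 0.0383 and 0.106 CPM, or 51, 37 and 22 counts against 2, 2 and 9 (DESeq2 adjusted p = 0.000279, edgeR adjusted p = 0.237). It had the lowest edgeR p of the comparison. Lrrc66 had 20, 55 and 39 counts against 3, 5 and 13 (DESeq2 adjusted p = 0.0345).

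To see whether a difference from the control cross went with the dose 2 father, the paternal dose 2 cross was tested directly against 3 other F2 crosses of 3 libraries each. These had a dose 2 mother, a dose 1 father, or both parents from dose 2, where dose 1 held 11.3, 90.0, 22.5 and 2.25 ng/L of the 4 compounds in the order above. The 3 tests share the paternal dose 2 libraries, so they are not independent of each other. In edgeR, 0 genes passed against the maternal dose 2 cross (414 at an unadjusted p under 0.05, DESeq2 2 genes) and 0 against the biparental dose 2 cross (883 at that p, DESeq2 13 genes). Against the paternal dose 1 cross 1 gene passed, or 0.00575%, the pseudogene Gm9199 (526 at that p, DESeq2 11 genes). If no gene differed, 870 would be expected at that p in each test. Of the 883 genes against the biparental dose 2 cross, 656 were lower in the paternal dose 2 cross, as were the 13 of DESeq2. Biparental dose 2 C lay at 62.4 on the second principal component. Its MHC class II genes summed to 2197 CPM, against 194 and 122 CPM in biparental dose 2 A and B. Its macrophage markers summed to 1061 CPM, against 372 and 354 CPM. The part of this library in the 883 genes was not tested.

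None of the 21 cholesterol genes passed in any of these direct tests. The median log2 difference of the list was -0.06 from the maternal dose 2 cross, -0.14 from the paternal dose 1 cross and -0.09 from the biparental dose 2 cross, where the median of all genes was 0.00, 0.00 and -0.01. Levels were lower in the paternal dose 2 cross for 17, 20 and 15 of the 21. Dhcr7 was at 73.4 to 81.1 CPM in the maternal dose 2 cross, 67.0 to 73.2 CPM in the biparental dose 2 cross and 77.4 to 79.2 CPM in the paternal dose 1 cross. The first 2 ranges overlapped that of the paternal dose 2 cross and the third did not, with log2 differences of -0.11 (SE 0.106), 0.01 (SE 0.106) and -0.14 (SE 0.106, edgeR adjusted p = 0.9999). Sqle overlapped in the same 2 crosses and not in the third, at 55.0 to 62.9, 47.9 to 60.6 and 57.6 to 65.6 CPM. The summed level of the list was 1630.2 to 2060.3 CPM over the 12 libraries of the other 4 crosses, and all but maternal dose 1 B and C lay below the lowest control cross library.

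**Figure D5:**
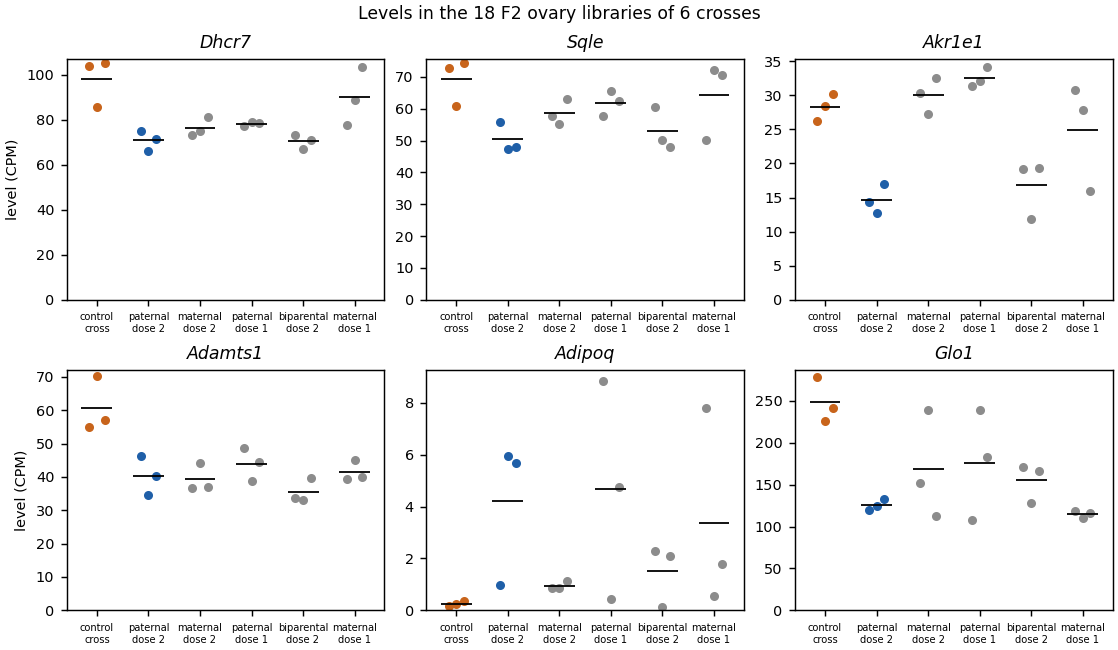
Level in CPM (y axis, from 0) of 6 genes in each of 18 F2 ovary libraries, 3 per cross, with the cross mean as a line, the control cross in orange, the paternal dose 2 cross in blue and the other 4 crosses in grey. Akr1e1 is low in the paternal and biparental dose 2 crosses, and Adamts1 is higher in the control cross than in any library of the other crosses.

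Akr1e1 was low in both crosses with a dose 2 father. It was at 19.2, 11.9 and 19.3 CPM in the biparental dose 2 cross, 30.3, 27.3 and 32.6 CPM in the maternal dose 2 cross and 31.3, 32.1 and 34.2 CPM in the paternal dose 1 cross. Outside the 2 crosses with a dose 2 father, 1 library was as low, maternal dose 1 C at 15.9 CPM. The paternal dose 2 cross was lower than the maternal dose 2 cross by a log2 difference of -1.03 (SE 0.212, edgeR adjusted p = 0.9997) and than the paternal dose 1 cross by -1.15 (SE 0.213, adjusted p = 0.335), and neither passed. Against the biparental dose 2 cross it was -0.19 (SE 0.212).

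For some other genes it was the control cross that stood away from several crosses. Adamts1 was at 33.1 to 48.6 CPM in the 12 libraries of the other 4 crosses, which covers the paternal dose 2 range and lies below all 3 control cross libraries. Gm30075 was at 0.335 to 1.04 CPM in the maternal dose 2 cross and 0.518 to 1.11 CPM in the paternal dose 1 cross, at the paternal dose 2 level. Lhcgr was spread more widely, at 54.2 to 117 CPM in the maternal dose 2 cross, 51.8 to 172 CPM in the paternal dose 1 cross and 128 to 321 CPM in the biparental dose 2 cross. The last 2 of these ranges overlapped the control cross as well as the paternal dose 2 cross, and the log2 difference from the biparental dose 2 cross was -0.79 (SE 0.461) and did not pass. Tdh behaved differently, with 0.580 to 0.901 CPM, 0.512 to 1.25 CPM and 0.937 to 1.24 CPM in the maternal dose 2, paternal dose 1 and biparental dose 2 crosses, all above the paternal dose 2 cross. Its direct differences were log2 -1.26 (SE 0.380), -1.58 (SE 0.377) and -1.85 (SE 0.376), and none passed after adjustment. Inhba was at 586 to 859 CPM, 625 to 873 CPM and 564 to 958 CPM in those crosses, above the paternal dose 2 libraries in each, with direct differences of -0.56 (SE 0.430) to -0.66 (SE 0.430) that did not pass.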

How the data were processed

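Ovary RNA was sequenced from a stranded mRNA ligation kit with 100 nt reads, per the labels' protocols. The authors deposited raw read counts per gene, not normalized, for 26264 genes in 27 ovary libraries. The submitters' processing notes name TopHat2 2.1.1, Bowtie2 2.4.5, SAMtools 1.13, featureCounts 2.0.3, DESeq2 1.32.0 and build mm39. Annotation and strand setting: not given in the sources used here. Overlapping, antisense and near-identical genes are therefore uncertain.

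The 18 F2 ovary libraries (37.9 to 84.7 M counts, M for mega) were fitted with edgeR 4.0.16 in R 4.3.3, with 6 cross means, TMM scaling and filterByExpr at a minimum count of 10. Levels are TMM-scaled CPM. All 18 entered the fit so that the crosses share 1 estimate of spread. A single value with 3 libraries against 3 cannot go below p = 0.1 in an exact permutation test, so none was run. On simulated counts with 200 changed genes, the test was checked before use. These counts were drawn from edgeR's own fitted spread, and no change as small as those of the cholesterol genes was simulated. The check therefore does not tell how often such differences would be found. No 2 libraries of the paternal dose 2 cross, or of the control cross, differed by as little as counting error. Their chi-square per degree of freedom was from 24.3 to 148. The other crosses were not checked in this way. DESeq2 1.42.0 and other alternatives are given in the closing section.

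The members were picked out by their labels, but the choice of this comparison, of the 36 gene lists and of the tests was made with earlier results of these data known. As under 20 genes passed, the named genes are the 12 of lowest p in each direction with separate groups and a mean level of 1 CPM or more in whichever group was higher, 20 genes always given, and list members. List members beyond these rules, and Gm30075, Lrrc66 and Gm9199, were named after their values were seen. Some genes are not reported here and were left out of the lists and the named genes without replacement, which was decided after the values were seen and not by them. Testis libraries (27) were not used.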

Additional observations from a re-analysis of the deposited data

Results flagged for a closer look

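The pseudogene Gm9199 differed between the paternal dose 2 and the paternal dose 1 cross by 5.56 on the log2 scale (SE 0.659, edgeR adjusted p = 0.00461), a test of the difference between the 2 crosses. It was at 2.94, 2.99 and 1.84 CPM in the paternal dose 2 libraries, 0.0706, 0.0891 and 0 CPM in the paternal dose 1 libraries and 5.01, 1.91 and 2.90 CPM in the control cross. The paternal dose 1 cross was the low one, all 3 of its libraries lying under 0.1 CPM, and the fitted size at such low counts depends on the prior count. Reads of a pseudogene can be shared with its parent gene.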

How the results depend on the processing

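Against the control cross, 0 genes passed under RLE scaling, without the count filter, with a replicate block, with the 6 libraries alone and with any 1 of the 6 left out, and 6 passed in DESeq2. The labels do not say whether the letters pair the libraries. Deviations from the group mean had correlations of -0.13, 0.059 and 0.061 for the same letter and -0.19 to 0.15 for different letters. With 3 libraries a group these values cannot decide it. Against the maternal dose 2 cross, 2 passed in DESeq2 and 1 with the 6 libraries alone. Against the paternal dose 1 cross, 11 passed in DESeq2, 11 with the 6 libraries alone, 1 to 2 with 1 library left out (2 without paternal dose 1 A) and 2 without maternal dose 1 C, an alternative chosen after seeing the data. Against the biparental dose 2 cross, 13 passed in DESeq2.

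The 23 named genes of lowest p kept their direction in all 276 alternative values. Of 239 values of the 20 genes always given, 14 had the opposite sign. With 1 library left out, log2 fold changes ranged from -0.76 to 1.09 for Star, -0.14 to 0.065 for Hsd17b1, -0.15 to 0.052 for Esr1, -0.20 to 0.56 for Pgr, -0.12 to 0.22 for Amh, -0.27 to 0.19 for Foxl2 and -0.13 to 0.41 for Zp3, and Foxl2 was -0.000346 with the replicate block. With 1 library left out, further list medians turned sign, besides those described above. The estrogen list went to 0.06 and follicle activation genes to 0.07 without control cross A. The ovulation list went to 0.03 and WNT and Hedgehog genes to 0.01 without paternal dose 2 A. Without control cross B, DNA methylation and chromatin genes went to -0.04 and oxidative phosphorylation genes to 0.09. Collagen, endothelial and circadian clock genes went to -0.01, -0.07 and 0.03 without that library. The cause was not tested.

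With 3 libraries a group, no difference of the size seen in the cholesterol genes passed after adjustment over 17400 genes. Genes near 1 CPM rest on few counts, as for Tdh with 8 to 17 counts in the paternal dose 2 libraries.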

Other observations

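Glo1, the glyoxalase that clears methylglyoxal, was looked at after its values were seen. It had 119, 124 and 133 CPM in the paternal dose 2 libraries and 279, 225 and 242 CPM in the control cross (log2 -0.98, SE 0.253, edgeR adjusted p = 0.829). Levels in other crosses varied between libraries, with 152, 239.5 and 113 CPM in the maternal dose 2 cross, 108, 239 and 182 CPM in the paternal dose 1 cross and 171, 128 and 166 CPM in the biparental dose 2 cross. The maternal dose 2 and paternal dose 1 crosses each held libraries near both levels. In the biparental dose 2 cross, library B lay within the paternal dose 2 range and the other 2 lay between it and the control cross.

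Imprinted genes, which are expressed from 1 parental copy, showed no shared direction, with 13 of 31 higher, 18 lower and a median log2 fold change of -0.06. The maternally expressed Rian had 111, 119 and 122 CPM in the paternal dose 2 libraries and 147, 149 and 163 CPM in the control cross (log2 -0.38, SE 0.214). Phlda2, also maternally expressed, had 0.157, 0.224 and 0.178 CPM against 0.109, 0.0766 and 0.129 CPM. Both sets of groups were separate and neither gene passed edgeR's test. The levels of Phlda2 rest on few counts. Of the 31 genes, 3 had all paternal dose 2 libraries above the control cross and 3 below it. These are 9.68% each, against 5.74% and 5.09% of all genes.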
